A study of Homo sapiens with 4 samples.

Results

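The genes described here encode SR proteins, hnRNPs and the CLK kinases, which act in the choice of splice sites. They were taken as all rows of the deposited table whose gene symbol starts with SRSF and a digit, with HNRNP, or with CLK and a digit, and holds no hyphen. This gave 35 of 16376 listed genes, namely 10 SR protein genes, 21 hnRNP genes and 4 CLK genes. RNA was measured by poly(A)-selected RNA-seq in HCT116, an established human colon cancer cell line. One group, Control, was left untreated and the other was exposed to hydrogen peroxide (H2O2), an oxidant that enters cells, with 2 samples in each group. The labels give no dose and no exposure time, and leave unsaid whether replicates are independent cultures. The p-values therefore cover the spread among these 4 samples, which may be technical. The header has only the letters A and B for the groups. A was taken to be Control since the table's name puts that group first. All directions below depend on this reading.

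The table lists, per gene, a mean for each group of normalized counts, that is, of read counts divided by a size factor for each library. The whole counts of the 4 libraries were recovered from these means, and within each group they are called the deeper and the shallower library for want of replicate numbers. Wherever values of a group's libraries are given, the deeper comes first. The libraries held 6858809 to 7365032 reads over the listed genes, of which the 35 genes took 1.02% to 1.15%. Of 7 colon epithelial markers 6 were listed, with summed normalized counts of 7391 to 9248. No endothelial marker of 3 was listed, and of 4 leukocyte markers only CD14 was listed, at 4.79 and 3.08 normalized counts in Control and 18.3 and 10.4 with H2O2, and it was called in the authors' deposited table (ratio 3.65, DESeq, adjusted p = 0.0270). Of 4 fibroblast markers COL1A1 and COL3A1 were listed, with sums of 992 and 915 in Control and 797 and 736 with H2O2, and COL1A1 was called lower in the authors' deposited table (ratio 0.734, DESeq, adjusted p = 0.0211). The part of these markers in the results below was not tested.

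SR proteins carry RNA recognition motifs and a tail rich in arginine and serine, bind mostly to exons and commonly promote their inclusion. hnRNPs are abundant nuclear RNA-binding proteins that coat nascent transcripts, and several of them commonly repress the exons near which they bind. CLK kinases phosphorylate the arginine-serine tails and so release SR proteins from nuclear speckles. Many of these genes limit their own product through alternative exons or retained introns that lower the yield of functional mRNA, and counts summed over a gene, as here, do not separate such isoforms.

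HNRNPA1 is a gene with many processed pseudogenes, which bears on how its reads can be counted. Over the coding sequence of HNRNPA1 in GENCODE release 29, 87.9% of words of 75 bases also occurred in transcripts of other genes, against 27.4% over its longest principal transcript. Of the 23 genes that shared a word with that transcript, 19 were annotated as pseudogenes. CLK2, the other gene on which the results turn, has a pseudogene as well, CLK2P1. The first 75 bases of the CLK2 coding sequence are shown beside the closest stretch of CLK2P1 to let both be compared, read 5′ to 3′ from GENCODE transcripts, with capitals at the 3 bases that differ from CLK2.
CLK2: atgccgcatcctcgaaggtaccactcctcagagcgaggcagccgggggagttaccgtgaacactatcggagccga
CLK2P1: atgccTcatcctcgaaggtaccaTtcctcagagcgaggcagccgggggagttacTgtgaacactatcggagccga
Only 4.86% of the coding words of CLK2 occurred elsewhere. The authors' handling of reads matching more than 1 gene is unstated. The read length is unstated too, so these shares hold for words of 75 bases and not necessarily for the reads. Of the 35 genes, 4 shared over 10% of their transcript's words with other genes. Besides HNRNPA1 these were HNRNPA3 (42.0%), HNRNPA1L2 (40.8%) and HNRNPC (17.0%). The values of these 4 genes are uncertain for that reason.

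With H2O2, HNRNPA1 and CLK2 were lower, and the other 33 of the 35 genes did not pass the authors' test. In the authors' deposited table HNRNPA1, which binds exonic and intronic silencers, had 0.567 of its Control mean and the kinase gene CLK2 had 0.641. Thus 2 of 35 genes were called at an adjusted p under 0.05, both lower, where 7.19% of all listed genes were called, 2.58% higher and 4.62% lower. At an unadjusted p under 0.05 there were 9 of the 35 genes, 6 higher and 3 lower, against 19.6% of all listed genes (7.72% higher and 11.9% lower). Both H2O2 libraries lay on the same side of both controls for 22 of the 35 genes, where 51.9% of all listed genes were so placed. The median log2 fold change of the 35 genes was 0.12 by the authors' deposited table, beside 0.00029 over all listed genes. The families differed in their medians, which were 0.17 for the hnRNPs, 0.017 for the SR proteins and -0.081 for the CLK kinases in the authors' deposited table.

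**Figure D1:**
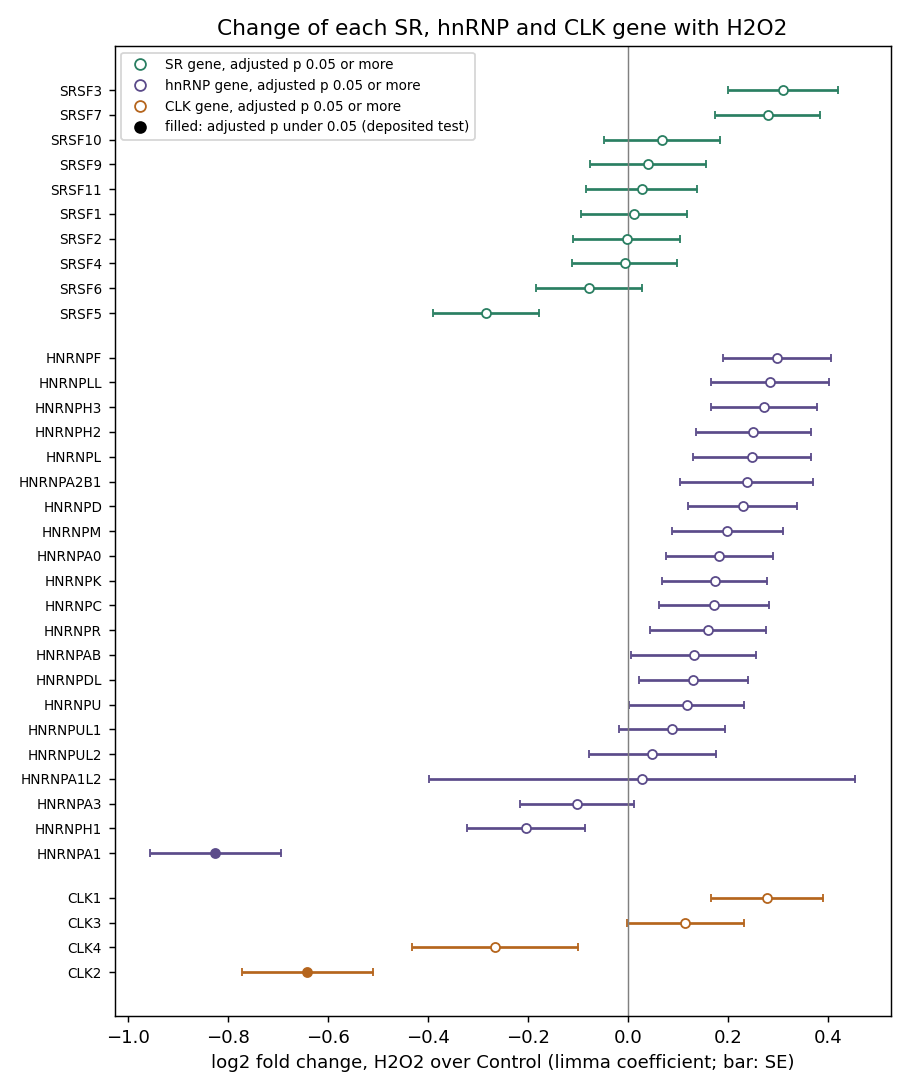
Log2 fold change with H2O2 over Control for each of the 35 genes, by family (points: limma coefficient on log2(normalized count + 1), bars: SE, 2 libraries per group). Filled points, HNRNPA1 and CLK2, passed the authors' test, and most hnRNP genes lie between 0 and 0.30.

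CLK2 phosphorylates SR proteins. Its normalized counts were 402 and 375 in the deeper and the shallower Control library and 235 and 263 in the deeper and the shallower H2O2 library. Both H2O2 libraries lay below both controls, by more than the libraries of a group differed. Its log2 fold change was -0.64 with an adjusted p of 9.93e-04 in the authors' deposited table. limma put its fall at a log2 fold change of -0.64 ± 0.13 (SE, n = 2 per group, adjusted p = 0.0119). Without the deeper H2O2 library, which leaves that group with 1 library and the spread to the controls, limma gave CLK2 a log2 fold change of -0.56 and did not call it (adjusted p = 0.169).

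The other 3 CLK genes did not pass. CLK1, a kinase of the same substrates, had 536 and 540 normalized counts in Control and 637 and 669 with H2O2. The groups of CLK1 did not overlap, and its log2 fold change was 0.28 by the authors' deposited table (DESeq, adjusted p = 0.231). CLK4 had 158 and 136 normalized counts in Control and 122 and 122 with H2O2. The controls of CLK4 differed from each other by more than the lower control differed from the H2O2 libraries, and the authors' deposited table gave -0.27 as its log2 fold change (DESeq, adjusted p = 0.448). CLK3 had 714 and 844 normalized counts in Control and 823 and 858 with H2O2, and its groups overlapped. CLK1 and CLK2 thus had opposite signs, and the difference between them was not tested.

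**Figure D2:**
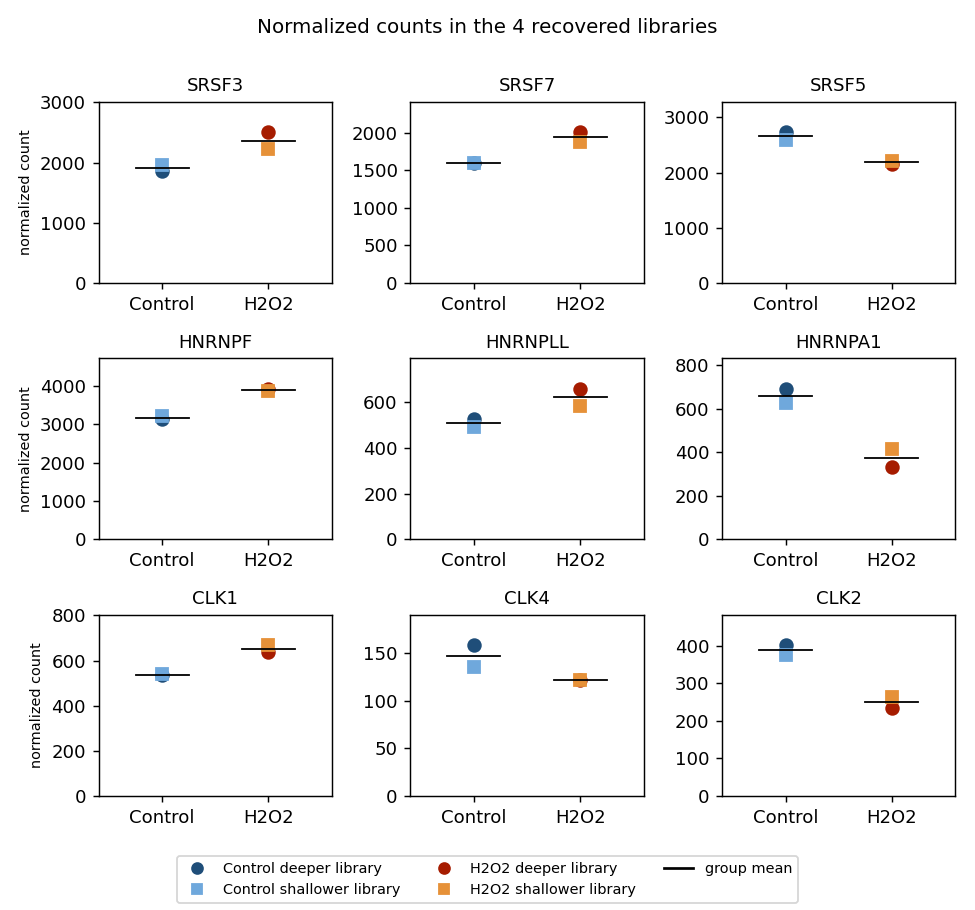
Normalized count in each of the 4 libraries for the 3 genes of each family with the largest change (rows: SR, hnRNP, CLK; black lines: group means; axes start at 0). The groups of these 9 genes do not overlap, as for 51.9% of all listed genes, and the separation is widest in proportion for HNRNPA1 and CLK2. The genes were chosen by their change in these same libraries, so their separation follows in part from the choice.

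HNRNPA1 had 694 and 626 normalized counts in the deeper and the shallower Control library and 333 and 415 in the deeper and the shallower H2O2 library. The H2O2 libraries lay below both controls. Its log2 fold change was -0.82 with an adjusted p of 7.71e-07 in the authors' deposited table. limma put its fall at a log2 fold change of -0.82 ± 0.13 (SE, n = 2 per group, adjusted p = 0.00291). It passed in limma with each library left out in turn, with an adjusted p of 0.0416 without the deeper H2O2 library as the highest. The part that the shared words described above play in these counts was not tested. HNRNPA1L2 had 10 and 11 reads in Control and 14 and 8 with H2O2, too few to show a change of this size.

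The remaining hnRNP genes pointed the other way in most cases, by small amounts. Of the 21 hnRNP genes 18 had a positive log2 fold change in the authors' deposited table, as did 8191 of all 16376 listed genes. Both H2O2 libraries lay above both controls for 14 of the 21, where 26.3% of all listed genes were so placed, and below both for HNRNPA1 and HNRNPH1, where 25.6% were. None of these 14 passed the authors' test or limma with all 4 libraries, before the length correction given below. Of them 3 had an unadjusted p under 0.05 in the authors' deposited table. The family's median of 0.17 became 0.12 without the deeper and 0.23 without the shallower H2O2 library in limma, and stood at 0.16 with scaling by total counts.

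HNRNPF, which binds runs of guanines, had 3128 and 3211 normalized counts in Control and 3935 and 3858 with H2O2. Its libraries agreed closely within each group, and its log2 fold change was 0.30 by the authors' deposited table (DESeq, adjusted p = 0.176). HNRNPLL, a regulator of alternative exons first studied in lymphocytes, had 525 and 491 normalized counts in Control and 657 and 581 with H2O2 (DESeq, adjusted p = 0.214). HNRNPH3 and HNRNPH2, relatives of HNRNPF, had log2 fold changes of 0.27 and 0.25 by the authors' deposited table. HNRNPH1, the third close relative, had 3688 and 3039 normalized counts in Control and 2915 and 2899 with H2O2. Its lower value thus rested on the deeper control, and its log2 fold change in limma was -0.064 without that library and -0.34 (called, adjusted p = 3.16e-04) without the shallower control.

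HNRNPA2B1, an abundant relative of HNRNPA1, had 18349.8 and 17280.0 normalized counts in Control and 21089.8 and 20884.4 with H2O2. Its H2O2 libraries lay above both controls, and its log2 fold change was 0.24 by the authors' deposited table (DESeq, adjusted p = 0.584). HNRNPL had a log2 fold change of 0.25, HNRNPD, which binds AU-rich elements, one of 0.23, and HNRNPM one of 0.20 in the authors' deposited table. HNRNPA0, HNRNPK and HNRNPC had log2 fold changes of 0.18, 0.17 and 0.17 there, and HNRNPDL and HNRNPU, a scaffold protein of nuclear RNA, had 0.13 and 0.12. These 8 genes had groups that did not overlap, and none passed. HNRNPR, HNRNPAB, HNRNPUL1 and HNRNPUL2 stood at 0.16, 0.14, 0.087 and 0.053 in the authors' deposited table, and of these only HNRNPUL1 had groups that did not overlap. HNRNPA3, a further relative of HNRNPA1 with 42.0% of its transcript's words shared with other genes, stood at -0.10 there with overlapping groups.

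No SR protein gene passed the authors' test or limma with all 4 libraries, before the length correction given below. That limma fit called 4.1% of all listed genes, 2.58% lower. At an unadjusted p under 0.05 there were 3 of the 10 in the authors' deposited table, beside the 19.6% of all listed genes given above, and 3 in limma, where 20.2% of all listed genes were. SRSF3, the smallest of the SR proteins and a link between splicing and mRNA export, had 1856 and 1955 normalized counts in Control and 2508 and 2222 with H2O2. SRSF7, which also links splicing to export, had 1597 and 1600.3 normalized counts in Control and 2009 and 1874 with H2O2. SRSF5 had 2737 and 2584 normalized counts in Control and 2151 and 2217 with H2O2. In these 3 of the 10 genes the groups did not overlap, with SRSF3 and SRSF7 higher and SRSF5 lower. Among all listed genes 51.9% were so placed, 26.3% higher and 25.6% lower. The log2 fold changes of SRSF3, SRSF7 and SRSF5 were 0.31, 0.28 and -0.28 in the authors' deposited table (DESeq, adjusted p = 0.124, 0.182 and 0.180).

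The other 7 SR protein genes had overlapping groups and log2 fold changes between -0.078 (SRSF6) and 0.061 (SRSF10) in the authors' deposited table. SRSF1, a broadly acting enhancer of exon inclusion, had 2509 and 2373 normalized counts in Control and 2497 and 2424 with H2O2. SRSF2, a speckle protein, had 2755 and 2733 in Control and 2626 and 2855 with H2O2, and SRSF4 stood at a log2 fold change of -0.0066 by the authors' deposited table. SRSF10, whose product represses splicing when dephosphorylated, had 1126 and 935 normalized counts in Control and 1085 and 1066 with H2O2. SRSF11 had 2288 and 1973 in Control and 2162 and 2169 with H2O2, so that for both genes the controls spanned the H2O2 libraries. SRSF9 stood at 0.040 on the log2 scale in the authors' deposited table. limma's SE for these 7 genes was 0.10 to 0.12 on the log2 scale, so changes of that size were not detectable with these libraries. Larger changes could be missed as well, since SRSF3 at 0.31 ± 0.11 (SE, n = 2 per group) was not called in limma (adjusted p = 0.129).

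**Figure D3:**
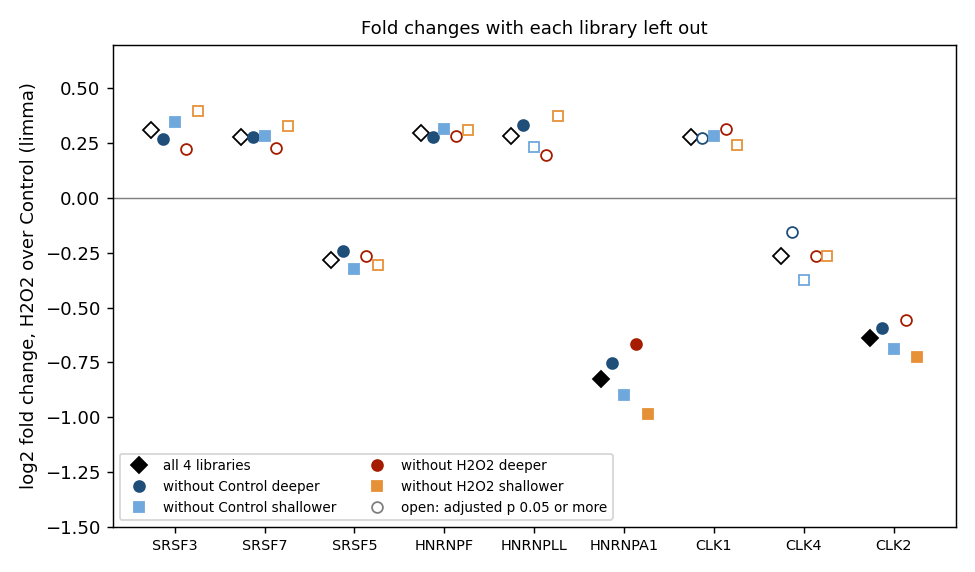
Log2 fold change in limma for the same 9 genes with all 4 libraries (diamonds) and with each library left out (filled: adjusted p under 0.05). No sign changed for these 9 genes, and HNRNPA1 alone was called in all 5 fits.

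The number of calls depended on which library was left out. With the deeper control removed, limma called 11 of the 35 genes, 8 higher and 3 lower, where it called 8.52% of all listed genes, 3.71% higher and 4.81% lower. Without the shallower control it called 12, 8 higher and 4 lower, where it called 22.2% of all listed genes, 10.6% higher and 11.6% lower. Neither fit holds any spread between controls, since only the H2O2 group kept 2 libraries. SRSF3, SRSF7, HNRNPF and HNRNPA2B1 were higher and SRSF5 lower in both of these fits. Without the deeper H2O2 library limma called HNRNPA1 alone, where it called 1.73% of all listed genes, 1.1% lower. Without the shallower it called HNRNPA1 and CLK2, where it called 3.13%, 1.84% lower. With a pseudocount of 5 and with total-count scaling the same 2 genes were called, where 4.18% and 4.09% of all listed genes were. Between the controls, the median of the 35 genes was -0.051 on the log2 scale in the shallower relative to the deeper library, beside 0.0094 over all listed genes.

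The libraries also differed with transcript length. Of 4 length classes of equal size, the longest had a median log2 deviation from the mean of the 4 libraries of 0.16 and the shortest of -0.13 in the deeper control. In the shallower control these values were -0.018 and 0.017. The H2O2 libraries leaned the other way from the deeper control, with -0.095 and -0.047 for the longest and 0.072 and 0.053 for the shortest, so the length trend runs partly with treatment. In limma after removal of a smooth length trend in each library, HNRNPA1 and CLK2 fell by 0.78 and 0.72 on the log2 scale (adjusted p = 0.00230 and 0.00555). That fit called SRSF3 and HNRNPA0 as well, both higher, with log2 fold changes of 0.36 and 0.39 (limma, adjusted p = 0.0487 and 0.0435), so 4 of the 35 genes passed, where 4.53% of the genes with a length did, 1.8% higher and 2.73% lower. SRSF5 did not pass there (limma, adjusted p = 0.0583).

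Levels were compared between genes as normalized counts per kilobase of transcript. HNRNPA2B1 stood first in Control at 5094 per kilobase and held 23.9% to 26.2% of all reads of the 35 genes. HNRNPM followed at 1793, SRSF1 at 1614, HNRNPC at 1544 and HNRNPF at 1150.4 per kilobase in Control. The part that words shared with other genes play in the level of HNRNPC was not tested. SRSF1 and HNRNPC did not differ beyond their spread in Control, with 1659 and 1569 per kilobase for SRSF1 and 1452 and 1637 for HNRNPC, so that their order turned in the shallower control. The CLK genes lay in the lower part of the range, with CLK3 at 422, CLK1 at 285, CLK2 at 201 and CLK4 at 57.2 per kilobase in Control. CLK2 moved from 201 to 129 per kilobase with H2O2 while CLK1 moved from 285 to 346. HNRNPA1 stood at 160 per kilobase in Control and 90.8 with H2O2, computed with the long transcript model named above. The part that shared words play in this level of HNRNPA1 was not tested either. HNRNPUL2, at 73.2 per kilobase, and HNRNPA1L2, at 7.61, were near the bottom. Exons of both overlap a gene on the same strand in GENCODE, and the part of this in their levels was not tested.

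**Figure D4:**
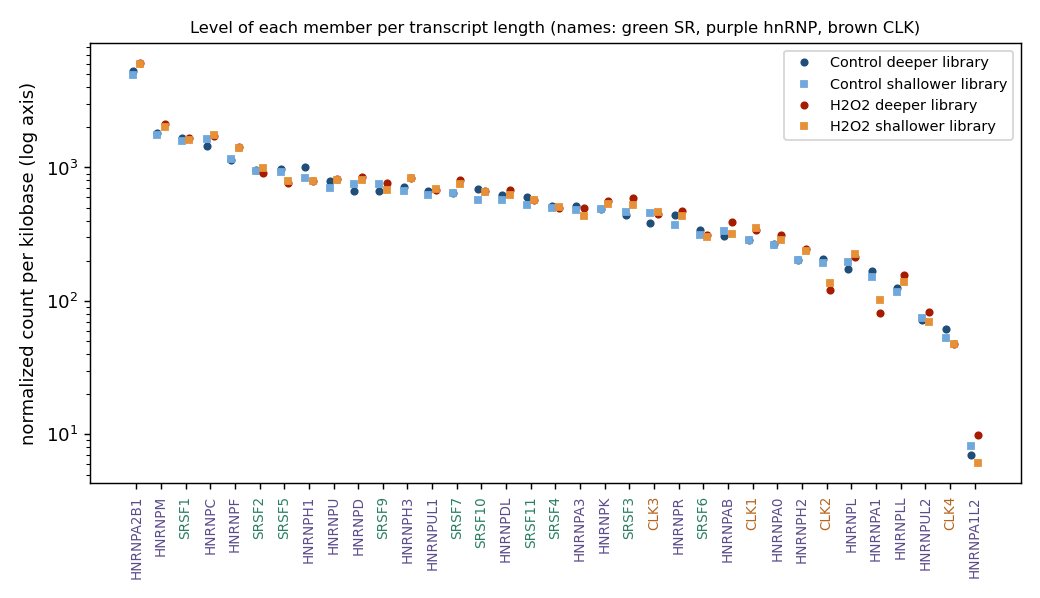
Normalized count per kilobase of transcript in each library for the 35 genes, ordered by their Control mean (log axis; circles: deeper, squares: shallower library). HNRNPA2B1 is highest and HNRNPA1L2 lowest, and the H2O2 points of CLK2 and HNRNPA1 fall visibly below their Control points.

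Among other splicing genes, 10 of 160 listed were called in the authors' deposited table, all of them lower. This is 6.25% of them, near the 7.19% called and 4.62% called lower over all listed genes. They belonged to 3 of 4 lists: kinases and partners of SR proteins (3 of 15), SR-related proteins (3 of 32) and other splicing regulators (4 of 50). None of 63 core spliceosome genes was called by the authors' test or by limma with all 4 libraries, and 11 of them (17.5%) had an unadjusted p under 0.05 in the authors' deposited table, where 19.6% of all listed genes did. The median log2 fold changes of the 4 lists, in the same order, were -0.28, -0.050, -0.016 and 0.079 in the authors' deposited table. limma called 8 of the 10 genes and none besides, where it called 4.1% of all listed genes. It called 47 of the 160 with the shallower control removed and 2 with the deeper H2O2 library removed, where it called 22.2% and 1.73% of all listed genes. Within Control, the median log2 difference of the shallower from the deeper library was -0.21 for the kinases and partners and -0.15 for the SR-related proteins, and its part in their lower values was not tested.

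Of the kinases and partners, CCNL2, a cyclin L that pairs with CDK11, had 2654 and 2724 normalized counts in Control and 1601 and 1862 with H2O2. It had 0.644 of its Control mean by the authors' deposited table (DESeq, adjusted p = 7.85e-05). CDK12, a kinase of the tail of RNA polymerase II with an arginine-serine region of its own, had 0.652 (DESeq, adjusted p = 2.58e-04 in the authors' deposited table). SRPK3, a kinase of SR proteins best known from muscle, had 87 and 49 reads in Control and 18 and 19 with H2O2, a log2 fold change of -1.85 by the authors' deposited table, and was called in limma with each library left out. The main cytoplasmic SR protein kinases SRPK1 and SRPK2 did not pass and stood at 0.092 and 0.064 on the log2 scale by the authors' deposited table.

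SRRM2, a large scaffold protein of nuclear speckles, had 9522 and 7956 normalized counts in Control and 5782 and 6012 with H2O2. Its log2 fold change was -0.57 by the authors' deposited table, and its controls differed by 0.26 on that scale. NKTR and SCAF8, which carry arginine-serine regions, had log2 fold changes of -0.54 and -0.56 there, and SCAF8 did not pass in limma (adjusted p = 0.0750). NKTR was at the threshold in limma and was not called with total-count scaling (adjusted p = 0.0530) or the length correction (adjusted p = 0.0696). After that correction SRRM2 had a log2 fold change of -0.34 in limma (adjusted p = 0.0481), against -0.56 before it. RBM5, a regulator of apoptosis genes' exons, had 938 and 862 normalized counts in Control and 579 and 647 with H2O2, and a log2 fold change of -0.55 by the authors' deposited table. EWSR1, NOVA2 and RBM4 had log2 fold changes of -0.51, -0.80 and -0.94 there, and RBM4 missed the threshold in limma (adjusted p = 0.0640). The length correction also made the falls of CDK12, NOVA2 and SCAF8 smaller in limma. CDK12 moved from -0.61 to -0.42 (adjusted p = 0.0213), NOVA2 from -0.81 to -0.63 (adjusted p = 0.0421) and SCAF8 from -0.54 to -0.46. Those of SRPK3, CCNL2, EWSR1, RBM4 and RBM5 became larger. Without the deeper H2O2 library SRPK3 was the only one of these 10 genes that limma called. Exons of SRRM2, NKTR, EWSR1, RBM4 and RBM5 overlap a gene on the opposite strand in GENCODE. Without a stated strand setting the reads of such pairs cannot be told apart. Exons of SRPK3, SCAF8, RBM4 and RBM5 overlap a gene on the same strand there, which a strand setting would not separate. The part of these overlaps in the values was not tested.

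**Figure D5:**
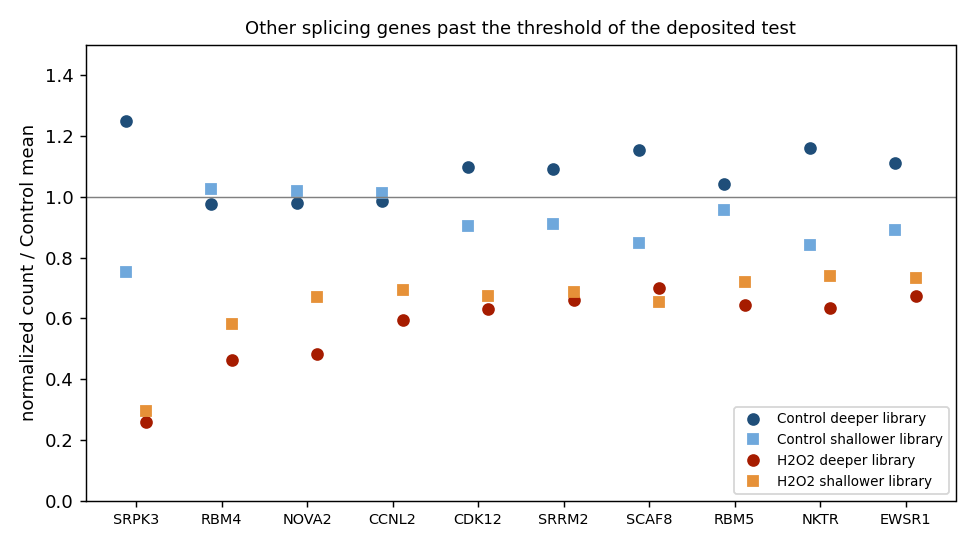
Normalized count divided by the Control mean in each library for the 10 splicing genes outside the 3 families that passed the authors' test (line: Control mean; axis starts at 0). Every H2O2 point lies below both Control points of its gene, and the controls of SRPK3, NKTR and SCAF8 are far apart. The genes were chosen because they passed in these same libraries, so this placement follows in part from the choice.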

How the data were processed

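Per the submitters' processing notes, the tools were STAR, HTSeq, DESeq, Trim Galore, FastQC and CASAVA 1.8, on build hg19. Roles and settings are not given there. The deposited table holds, as a signal, group means that the authors took of size-factor-scaled counts, with a ratio (fold change) and its log2, and p-values of the authors' DESeq test with their adjustment, per the file headers. No source used here states the read length, strand setting or annotation.

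Each group mean was solved for 2 whole counts with a tolerance of 1e-09, and all 16376 genes had exactly 1 solution per group. Both this step and limma were tested on simulated data. Recovered values were fitted with limma 3.58.1 in R 4.3.3 with a trend on log2(normalized count + 1), adjusted over all genes by Benjamini-Hochberg, with 2 residual degrees of freedom. Fold changes of limma are on that scale. An exact permutation test of 2 against 2 libraries cannot go below 0.333 (two-sided) and was not used. Counts and floors cover counting error only.

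Transcript lengths and words of 75 bases came from GENCODE release 29 (longest principal transcript, found through symbols or older names for 85.1% of the table and all 35 members). That release is on another build, so no coordinates are given. Words were searched on both strands of transcripts of genes at other loci. Exons of 13 members overlap a gene on the opposite strand in that release, among them HNRNPH3, HNRNPA2B1, HNRNPM, HNRNPU, SRSF2 and CLK3. Their reads cannot be told apart from that gene's without a strand setting. Exons of some members, among them HNRNPUL2, HNRNPH2, HNRNPL, HNRNPA1L2 and SRSF1, overlap a gene on the same strand, which a strand setting would not separate.

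Members and lists were chosen with earlier results of these data known. The rule named each member, in full those past 0.05 and the 3 of largest change per family at a mean of at least 50, and called genes of the splicing lists, up to 6 per list.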

Additional observations from a re-analysis of the deposited data

How the results depend on the processing

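The count of 2 called members, both lower, was the same with limma, a pseudocount of 5, scaling by total counts, adjustment over genes of mean at least 50, and a threshold of 0.01. It was 4 with the length correction, which tests fewer genes, and, with a library left out, 1 to 12 (11 and 12 without the deeper and the shallower control). The count of 10 called splicing genes outside the families was 8 in limma and, with a library left out, 2 to 47 (13 without the deeper control, 6 without the shallower H2O2 library). Fits without a control take their spread from the H2O2 libraries alone. Signs changed only for members that did not pass in any of the fits concerned. After the length correction SRSF1 stood at -0.094, SRSF9 at -0.082, SRSF10 at -0.030 and HNRNPA1L2 at -0.087, and with total-count scaling SRSF1 stood at -0.0049. With a library left out, log2 fold changes ranged from -0.029 to 0.052 for SRSF1, from -0.063 to 0.058 for SRSF2, from -0.026 to 0.013 for SRSF4, from -0.053 to 0.13 for SRSF9, from -0.066 to 0.20 for SRSF10, from -0.079 to 0.13 for SRSF11, from -0.29 to 0.35 for HNRNPA1L2, from -0.011 to 0.27 for HNRNPAB, from -0.068 to 0.17 for HNRNPUL2 and from -0.0055 to 0.23 for CLK3. Among the fits with a library left out that turned a sign, the value nearest 0 was -0.0100 for SRSF1, 0.0029 for SRSF2, 0.0024 for SRSF4, -0.047 for SRSF9 and -0.080 for HNRNPA1L2. The cause was not tested. No paired analysis was possible because the table's columns carry no replicate numbers. HNRNPA1L2, at 8 to 14 reads, is limited by depth.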

Other observations

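HNRNPU-AS1, left out of the families by its hyphen, is named as an antisense transcript of HNRNPU. It had 825 and 713 normalized counts in Control and 543 and 547 with H2O2, and a ratio of 0.708 according to the authors' deposited table (DESeq, adjusted p = 0.00621). limma put its log2 fold change at -0.49 ± 0.12 (SE, n = 2 per group, adjusted p = 0.0274). With either H2O2 library left out, the deeper first, it did not pass (limma, adjusted p = 0.243 and 0.169). For HNRNPU itself the authors' deposited table gave 0.12 on the log2 scale. In GENCODE release 29, COX20 on the opposite strand was the only gene found with exons overlapping those of HNRNPU. HNRNPU-AS1 was not found among such genes under that name. The length correction, which depends on transcript length alone, moved HNRNPU-AS1 from -0.493 to -0.347 in limma (adjusted p = 0.0490). It moved HNRNPU from 0.118 to 0.264, an equal shift, so both names were given the same transcript length here. Whether the counts under HNRNPU-AS1 come from an RNA separate from HNRNPU was not tested.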
